A study of Mus musculus with 9 samples.

Results

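Cytochrome P450 genes of families 1 to 3 were taken as every protein-coding gene whose symbol is Cyp1, Cyp2 or Cyp3 followed by a subfamily letter and a number, in the GENCODE annotation of the mouse build GRCm38. The rule gave 58 genes among the 56719 rows of the count files, and 45 of the 58 passed the filter on low counts. It leaves out Cyp3a41a, Cyp3a41b, Cyp2ab1 and the pseudogenes. All 58 are named from their symbols and not from how they behaved in these libraries.

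Cytochromes P450 are haem enzymes of the endoplasmic reticulum that insert oxygen into drugs, steroids, bile acids and fatty acids, with electrons from NADPH passed on by the reductase Por. Families 1 to 3 are the main drug-metabolising families of the hepatocyte, and many of their genes are induced by foreign compounds through the Ah receptor (family 1), the receptor CAR, encoded by Nr1i3 (Cyp2b and several Cyp2c genes), or the receptor PXR, encoded by Nr1i2 (Cyp3a). Inflammatory cytokines are known to lower many of them.

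Polyadenylated RNA of the liver was sequenced from C57BL/6J mice in 3 groups of 3 libraries. WT mice took PBS by gavage over 4 weeks and had PBS injected into the tail vein on the day the livers were collected. Con A mice had the same PBS gavage and then 10 mg/kg of concanavalin A (Con A) by tail vein on that day; this jack bean lectin drives T cell activation and hepatitis. FMT-Con A mice were gavaged for 4 weeks with a faecal suspension from mice in which the same lectin dose had induced the autoimmune hepatitis model, and then had the 10 mg/kg injection. No group had the faecal gavage without the lectin, so the comparison of FMT-Con A with WT holds both treatments. The hours between injection and collection, and the faecal donors of each mouse, are not given in the sources used here. Nothing in the labels beyond a replicate number per library states that libraries come from separate animals. The p-values therefore cover only the spread from library to library.

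The sample tags call the mice female and the growth protocol calls them male. In all 9 libraries the Y-linked genes Ddx3y (99.9 to 259 CPM, a count scaled by the total of its library and by TMM) and Eif2s3y (55.2 to 113 CPM) were present, and Xist, the RNA of the inactive X chromosome, ran from 1.04 to 6.36 CPM. Total counts were 20513051 to 29466806 per library. The 7 hepatocyte markers summed to 57383 to 67645 CPM in WT, 49443 to 59144 CPM in Con A and 29714 to 34346 CPM in FMT-Con A. The 12 skeletal muscle markers summed to 3.04 to 7.92 CPM in WT, to 2.57, 5.77 and 1239 CPM in Con A 1, 2 and 3, and to 12658, 1304 and 12265 CPM in FMT-Con A 1, 2 and 3. Neutrophil markers (8 genes) summed to 8.94 to 14.6 CPM in WT, 262 to 460 CPM in Con A and 202 to 323 CPM in FMT-Con A. None of these markers was at 0 in all 9 libraries. Transcripts of the mitochondrial genome took 19.6 to 22.4% of the counts in WT and 5.03 to 11.7% in the injected mice. In whole liver, fewer cells of a type and less RNA per cell cannot be told apart, and the part of other tissues in the P450 levels was not tested beyond the values given beside each result.

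Measured per kilobase of exon, so that genes can be compared, Cyp2e1, which oxidises ethanol and paracetamol, was the most abundant of the 58 genes in every group, at 1516 ± 126 CPM per kb in WT (SD, n = 3). Its level was 1871 ± 275 CPM per kb after Con A alone, and FMT-Con A livers had 1607 ± 484. It was followed in WT by Cyp2d9 (474 ± 39.4 CPM per kb), a steroid hydroxylase known as male-biased, and Cyp1a2 (454 ± 59.4), the constitutive family 1 enzyme of the liver. Cyp2d10 (429 ± 59.8), Cyp2d26 (372 ± 27.4), Cyp3a25 (315 ± 58.4), Cyp3a11 (287 ± 17.3) and Cyp2a5 (273 ± 23.7) came next in WT, with SDs that overlap between neighbours. The order changed after Con A. Cyp2c70, which makes the muricholic acids of mouse bile, stood at rank 10 in WT and at rank 2 in both injected groups, and Cyp2c29, an arachidonic acid epoxygenase, at ranks 14, 3 and 8 in WT, Con A and FMT-Con A. Cyp2d9 went from rank 2 to rank 6 in both injected groups, and Cyp1a2 from rank 3 to ranks 9 and 7.

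The makeup of the P450 message by subfamily differed between the groups. As a percentage of the summed per-kilobase level of all 58 genes, Cyp2d held 24.5 ± 0.46% in WT and 15.9 ± 0.244% in Con A (SD, n = 3), and Cyp2a held 8.91 ± 0.84% and 3.51 ± 1.09%. Cyp2c held 15.7 ± 1.79% in WT and 27.7 ± 3.49% in Con A. The libraries of WT and Con A did not overlap for these 3 subfamilies. In FMT-Con A, Cyp2e1 held 41.6 ± 0.553% of the sum, against 33.4 ± 4.29% in Con A and 25.9 ± 0.988% in WT, and Cyp3a held 6.22 ± 0.657%, against 10.2 ± 1.11% and 11 ± 1.01%. These shares are a description with no test, and since they sum to 100% a rise of one subfamily lowers the others.

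**Figure D1:**
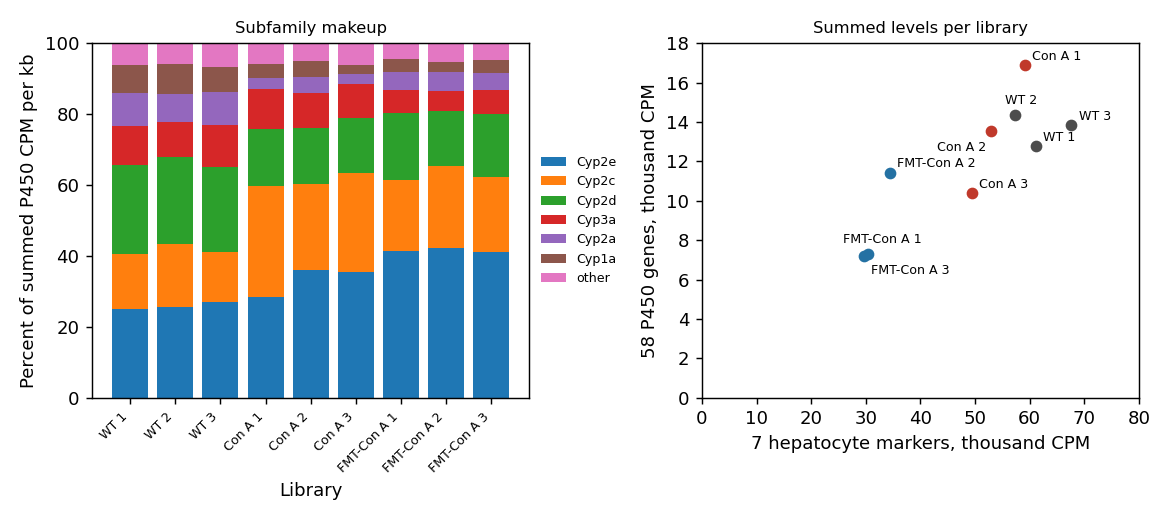
Left, the share of each P450 subfamily in the summed per-kilobase level of the 58 genes (percent), 1 bar per library, with Cyp2e growing from 25.9% on average in WT to 41.6% in FMT-Con A and Cyp2d larger in WT than in the injected mice. Right, the summed CPM of the 58 P450 genes against that of the 7 hepatocyte markers, 1 point per library (grey WT, red Con A, blue FMT-Con A); FMT-Con A 1 and 3 sit lowest on both axes.

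Together the 58 genes took 1.36, 1.47 and 1.45% of all counts in WT 1, 2 and 3, 1.46, 1.28 and 0.969% in the Con A libraries, and 0.785, 1.12 and 0.78% in those of FMT-Con A. The means were 1.43 ± 0.0581% in WT, 1.24 ± 0.248% for Con A and 0.893 ± 0.192% for FMT-Con A (SD, n = 3). By exact permutation tests, two-sided, the differences were -0.19 percentage points for Con A against WT (p = 0.3, 0.3 after Benjamini-Hochberg adjustment over the 3 comparisons), -0.343 for FMT-Con A against Con A (p = 0.2, adjusted 0.3) and -0.533 for FMT-Con A against WT (p = 0.1, adjusted 0.3). With 3 libraries against 3 the smallest p that such a test can give is 0.1. FMT-Con A lay below WT in every library, while the libraries of Con A overlapped those of both other groups. Mitochondrial transcripts took a larger part of the counts in WT, and the shares were therefore also taken over the counts outside the mitochondrial genome and the muscle markers. They were then 1.73, 1.89 and 1.81% in WT, 1.55, 1.42 and 1.02% in the Con A libraries, and 0.893, 1.21 and 0.896% in those of FMT-Con A. On this base every Con A library lay below every WT library. The differences became -0.479 percentage points for Con A against WT (exact permutation p = 0.1), -0.332 for FMT-Con A against Con A (exact p = 0.2) and -0.812 for FMT-Con A against WT (exact p = 0.1), none of them adjusted. Relative to the hepatocyte markers, the summed P450 CPM gave a ratio of 0.221 ± 0.0251 in WT, 0.25 ± 0.0379 for Con A livers and 0.272 ± 0.0529 for FMT-Con A livers (SD, n = 3). The P450 sum and the hepatocyte marker sum were thus both lowest in FMT-Con A. The part of the one in the other was not tested. The 7 markers did not move as one. By the edgeR test described below, 2 were higher and 4 lower in Con A than in WT. In FMT-Con A 1 was higher and 5 lower than in WT. The ratio is therefore not a P450 level per hepatocyte.

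The comparison of Con A with WT asks how the lectin injection alone bears on these genes. Of the 45 P450 genes tested, 6 rose and 18 fell by edgeR's quasi-likelihood F test at an adjusted p under 0.05. Over all 17704 genes tested 63.4% were called, 32.5% higher and 30.9% lower, so the 53.3% called among the P450 genes was not above the background, with 13.3% higher and 40% lower. Their median log2 fold change was -0.53, against 0.0064 over all genes tested. Every library of one group lay above every library of the other for 26 of the 45, or 57.8%, against 69.8% of all genes. Without WT 1 the number that rose was 3, and the share over all genes was not taken in that fit.

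**Figure D2:**
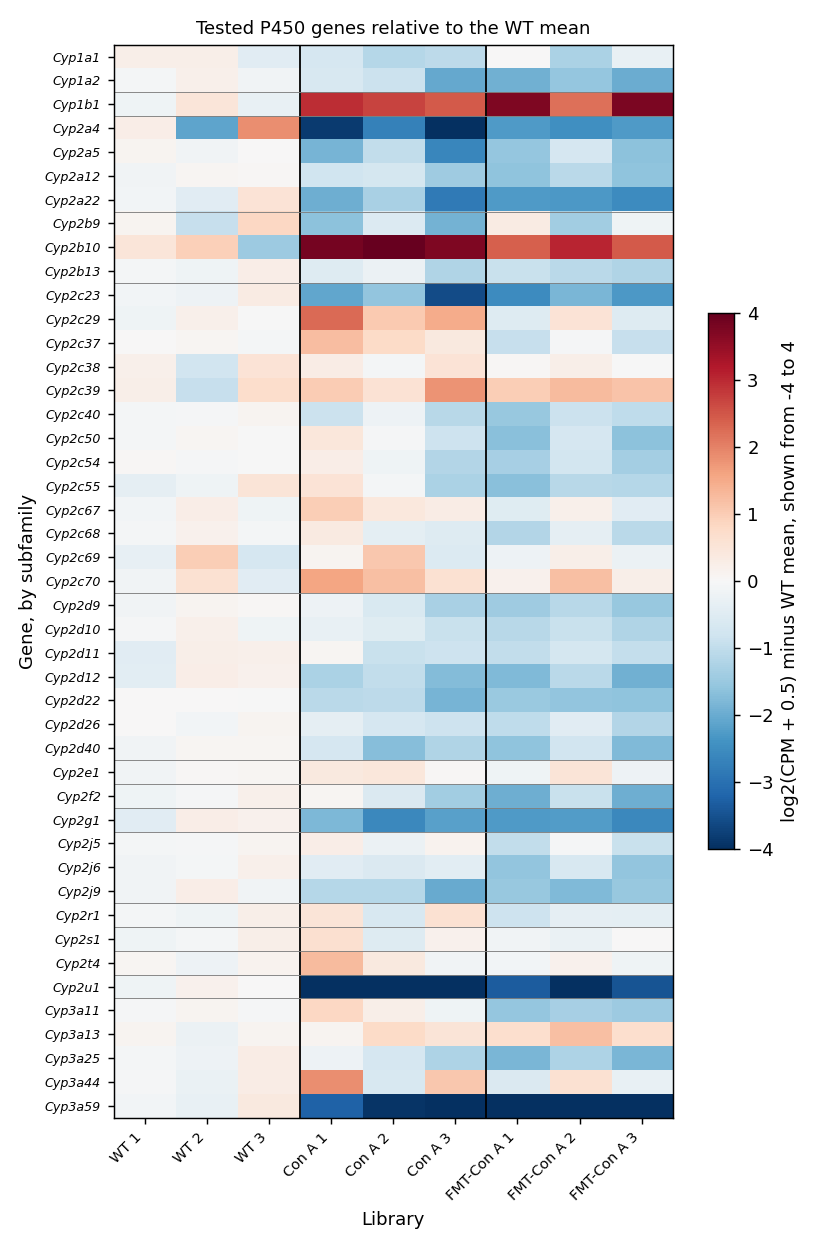
Level of each of the 45 tested P450 genes in each library as log2(CPM + 0.5) minus the mean of the 3 WT libraries, with the colour scale running from -4 to 4. Cyp1b1 and Cyp2b10 are red in all 6 injected libraries, Cyp2u1 and Cyp3a59 are dark blue there, and Cyp2c29 is red in the 3 Con A libraries.

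Family 1 split after Con A. Cyp1a2, which oxidises caffeine and aromatic amines, was at 867, 1049 and 824 CPM in WT 1, 2 and 3, and at 581, 500 and 221 CPM in Con A 1, 2 and 3. All 3 Con A libraries lay below all WT libraries, and the gene fell by 1.07 on the log2 scale (SE 0.31, edgeR adjusted p = 0.0124). Cyp1b1, which oxidises oestradiol and polycyclic hydrocarbons and is known mostly outside hepatocytes, was at 0.137, 0.515 and 0.0836 CPM in WT and at 5.08, 4.17 and 3.48 CPM in Con A. It rose in every Con A library, by 4.11 on the log2 scale (SE 0.63, edgeR adjusted p = 0.000315), from a WT level that rested on 2 to 11 counts per library. Cyp1a1, the enzyme most strongly induced through the Ah receptor, was barely present, with 20, 20 and 9 counts in WT and 5, 1 and 2 in Con A. Its log2 fold change of -2.49 (SE 0.96, edgeR adjusted p = 0.0428) passed, but no longer did when any of WT 1, WT 2, Con A 2, Con A 3 or FMT-Con A 3 was left out (highest adjusted p 0.122). The Ah receptor gene Ahr rose by 1.02 on the log2 scale (SE 0.31, edgeR adjusted p = 0.0144), and Tiparp, another gene it induces, went from 6.03 ± 0.121 to 173 ± 73.4 CPM (SD, n = 3; log2 fold change 4.84 ± 0.36 SE, adjusted p = 3.1e-06 in edgeR).

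All 4 Cyp2a genes fell. They lie on chromosome 7 between 26307169 and 27037375. Cyp2a5, the coumarin hydroxylase of mouse liver, was at 616, 517 and 565 CPM in WT and 157, 284 and 91.5 CPM in Con A, without overlap (log2 fold change -1.67 ± 0.39 SE; adjusted p = 0.00381 in edgeR). Cyp2a4, a female-biased steroid hydroxylase, was at 25, 4.45 and 76 CPM in WT and 0.995, 2.77 and 0.663 CPM in Con A. Its WT libraries differed 17.1-fold among themselves, the widest spread in WT among the tested P450 genes with a WT mean of at least 1 CPM and no count of 0, yet all of them stood above the Con A libraries (log2 fold change -4.59 ± 0.92 SE; adjusted p = 0.00158 in edgeR). Cyp2a22 went from 35.1, 27.4 and 55 CPM to 9.37, 15 and 4.85 CPM (log2 fold change -2.01 ± 0.37 SE; adjusted p = 0.00101 in edgeR). The drop was smallest in Cyp2a12, which acts on secondary bile acids, at 0.95 on the log2 scale (SE 0.22, edgeR adjusted p = 0.00392).

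Cyp2a4 and Cyp2a5 are 98.45% identical in coding sequence and 97.61% identical over the 250 bases before their RefSeq start sites, so they are shown together. The sequences are those of RefSeq on GRCm38.p6, on the plus strand at chr7:26306942-26307191 for Cyp2a4 and at chr7:26835089-26835338 for Cyp2a5, and capitals mark the bases that differ, or have no partner, in a global alignment of the pair.

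Cyp2a4: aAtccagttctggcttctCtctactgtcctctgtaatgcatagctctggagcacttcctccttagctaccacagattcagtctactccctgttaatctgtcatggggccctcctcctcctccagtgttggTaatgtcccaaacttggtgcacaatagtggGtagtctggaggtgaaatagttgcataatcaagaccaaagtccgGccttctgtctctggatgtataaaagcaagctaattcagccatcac

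Cyp2a5: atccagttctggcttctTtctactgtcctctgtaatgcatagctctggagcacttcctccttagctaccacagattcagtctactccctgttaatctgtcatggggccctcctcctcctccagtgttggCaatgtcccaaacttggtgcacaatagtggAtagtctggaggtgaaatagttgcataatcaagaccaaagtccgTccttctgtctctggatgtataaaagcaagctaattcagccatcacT

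Both stretches hold 1 copy each of the HNF1-like hexamer GTTAAT, the C/EBP-like motif TTGCNNAA and the TATA box TATAAA. Per length, Cyp2a4 stood at 4.85, 1.03 and 16 percent of the Cyp2a5 level in WT 1, 2 and 3, at 0.757, 1.16 and 0.865 percent after Con A, and at 2.48, 1.15 and 2.58 percent in FMT-Con A. WT 2 was within the range of the injected libraries, so the ratio overlapped between groups even though both genes fell. Of the 150-base windows along the Cyp2a4 transcripts, 4.22% occur in another gene, all in Cyp2a5, so most of its reads can be told apart if they map without error.

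Cyp2b and Cyp2c hold 5 of the 6 genes that rose. Cyp2b10, the classical target of the receptor CAR, was at 4.99, 7.02 and 0.92 CPM in WT and at 54.6, 66.1 and 51.3 CPM in Con A. Each Con A library was above each WT library, a log2 fold change of 3.74 (SE 0.53, edgeR adjusted p = 0.000175). The level of Nr1i3, which encodes CAR, moved the other way, from 130 ± 8.41 to 2.27 ± 0.839 CPM (SD, n = 3; log2 fold change -5.84 ± 0.24 SE, adjusted p = 1.57e-07 in edgeR). Cyp2b9, a female-biased gene of the same subfamily, had a log2 fold change of -1.73 (SE 0.68, edgeR adjusted p = 0.0467), with groups that overlapped; the call was lost without WT 1, WT 3, Con A 1, Con A 3 or FMT-Con A 3. The 5 Cyp2b genes lie on chromosome 7 between 25897620 and 26772630.

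Of the 13 Cyp2c genes tested, 4 rose, 1 fell and 8 did not pass. Cyp2c29 was at 360, 464 and 401 CPM in WT and 1963, 840 and 1132 CPM in Con A. It was higher in all Con A libraries and was the third most abundant P450 per length there (log2 fold change 1.68 ± 0.37 SE; adjusted p = 0.00276 in edgeR). Cyp2c37 was at 31.8, 33.2 and 30 CPM in WT and 75.1, 54 and 41.9 CPM in Con A. Its log2 fold change was 0.85 (SE 0.27, edgeR adjusted p = 0.0185). Cyp2c70 was at 385, 650 and 311 CPM in WT and 1277, 984 and 658 CPM in Con A (log2 fold change 1.12 ± 0.37 SE; adjusted p = 0.0233 in edgeR). For Cyp2c37 and Cyp2c70 the groups did not overlap, but the lowest Con A library of Cyp2c70 lay just above the highest WT library, and both calls were lost without WT 1, WT 3 or Con A 1 and under upper-quartile scaling (highest adjusted p 0.0822 and 0.0898). Cyp2c39, a retinoic acid hydroxylase, was at 29.8, 13 and 41.1 CPM in WT and 51.8, 37.9 and 88.4 CPM in Con A. Its groups overlapped, and its call (log2 fold change 1.09 ± 0.39 SE; adjusted p = 0.0337 in edgeR) was lost without WT 1, WT 2, Con A 1 or Con A 3, without the 2 muscle-rich FMT-Con A libraries, and under library-total or upper-quartile scaling (highest adjusted p 0.143).

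Cyp2c23, which makes epoxyeicosatrienoic acids, was the Cyp2c gene that fell, from 36.4, 34.6 and 49.4 CPM to 9.01, 13.1 and 2.86 CPM (log2 fold change -2.28 ± 0.44 SE; adjusted p = 0.00124 in edgeR). Its groups did not overlap. It lies on chromosome 19 at 44005022 to 44029208, apart from the other 14 Cyp2c genes. Those that did not pass included the abundant Cyp2c67 at 426 ± 75.1 CPM in WT and 636 ± 170 CPM in Con A (log2 fold change 0.58 ± 0.25 SE; adjusted p = 0.0655 in edgeR) and Cyp2c50 at 261 ± 13.6 and 253 ± 106 CPM (log2 fold change -0.05 ± 0.34 SE; adjusted p = 0.913 in edgeR; SD, n = 3).

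Cyp2c37 and Cyp2c50 are 96.13% identical in coding sequence but 84.62% identical in the 250 bases before the start site, and they are shown because the test called 1 of them higher after Con A and not the other. The sequences are from RefSeq, GRCm38.p6, plus strand, chr19:39992174-39992423 and chr19:40089429-40089678, with capitals at bases that differ, or have no partner, in their global alignment.

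Cyp2c37: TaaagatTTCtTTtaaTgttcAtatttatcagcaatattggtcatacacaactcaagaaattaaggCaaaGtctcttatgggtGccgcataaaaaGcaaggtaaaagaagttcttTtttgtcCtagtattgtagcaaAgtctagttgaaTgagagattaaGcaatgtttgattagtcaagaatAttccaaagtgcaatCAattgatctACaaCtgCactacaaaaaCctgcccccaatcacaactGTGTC

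Cyp2c50: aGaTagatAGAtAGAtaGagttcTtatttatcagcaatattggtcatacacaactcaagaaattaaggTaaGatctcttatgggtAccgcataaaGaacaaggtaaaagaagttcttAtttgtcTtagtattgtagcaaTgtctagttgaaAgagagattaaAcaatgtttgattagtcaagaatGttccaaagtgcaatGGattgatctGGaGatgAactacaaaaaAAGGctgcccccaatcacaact

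The motif TTGCNNAA occurs once in the Cyp2c37 stretch, 94 bases before the start on the opposite strand, and AGTTCA, a hexamer bound by CAR and PXR, occurs once in that of Cyp2c50, 35 bases before the start on the opposite strand. Per length, Cyp2c37 stood at 20.5, 19.3 and 18.5 percent of the Cyp2c50 level in WT, at 33.5, 34.1 and 45.9 percent after Con A, and at 32, 30 and 31.3 percent in FMT-Con A. All 6 injected libraries were above all 3 WT libraries in this ratio. The pair was chosen with these values known, so no test is given.

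Of the 7 Cyp2d genes tested, 6 fell and none rose; they lie on chromosome 15 between 82370527 and 82794294. Cyp2d9 was at 1145, 1350 and 1285 CPM in WT and 1082, 826 and 509 CPM in Con A. The groups did not overlap, though Con A 1 was close to WT 1, and the fall of 0.64 on the log2 scale (SE 0.25, edgeR adjusted p = 0.0447) no longer passed without any one of the 3 WT libraries, Con A 2, Con A 3, FMT-Con A 1 or FMT-Con A 3. Cyp2d10 went from 679, 817 and 626 CPM to 568, 500 and 378 CPM (log2 fold change -0.55 ± 0.19 SE; adjusted p = 0.0266 in edgeR). Cyp2d26 went from 666, 618 and 717 CPM to 516, 417 and 378 CPM (log2 fold change -0.61 ± 0.21 SE; adjusted p = 0.0266 in edgeR). For both, each Con A library was below each WT library; the Cyp2d10 call was lost without WT 2 or Con A 3, and the Cyp2d26 call without WT 1, WT 3, Con A 2 or Con A 3. The other Cyp2d genes that fell were Cyp2d12, Cyp2d22 and Cyp2d40, by 1.14 to 2.08 on the log2 scale.

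Cyp2e1 did not pass the test. It was at 2958, 3405 and 3449 CPM in WT and 4276, 4477 and 3362 CPM in Con A, with overlapping groups (log2 fold change 0.30 ± 0.23 SE; adjusted p = 0.268 in edgeR). Among the remaining Cyp2 genes, Cyp2u1, a fatty acid hydroxylase known from brain and thymus, had the largest fall of the 45. It was at 42.9, 54.7 and 49 CPM in WT and 1.05, 2.18 and 1.91 CPM in Con A, with no overlap (log2 fold change -4.82 ± 0.31 SE; adjusted p = 1.39e-06 in edgeR). Cyp2u1 lies on chromosome 3 at 131288441 to 131303227. Cyp2j9 fell by 1.45 on the log2 scale (SE 0.25, edgeR adjusted p = 0.000614). Cyp2g1, known from olfactory tissue, fell by 3.85 (SE 0.74, edgeR adjusted p = 0.00124), from 2.57 ± 0.77 CPM in WT (SD, n = 3). Cyp2f2, Cyp2j5, Cyp2j6, Cyp2r1, Cyp2s1 and Cyp2t4 did not pass.

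Within Cyp3a, 1 of 5 tested genes passed after Con A alone. Of those that did not, Cyp3a25 passed as lower in 8 of 18 alternatives. Cyp3a11, Cyp3a13 and Cyp3a44 each passed as higher in fewer. Cyp3a59 was at 43.5, 38 and 62.1 CPM in WT and 4.56, 2.62 and 2.03 CPM in Con A, a fall seen in every library (log2 fold change -3.97 ± 0.31 SE; adjusted p = 4.61e-06 in edgeR). Cyp3a25, its close relative, was at 609, 563 and 793 CPM in WT and 566, 403 and 278 CPM in Con A. Con A 1 lay within the WT range, and the difference missed the threshold (log2 fold change -0.66 ± 0.28 SE; adjusted p = 0.0595 in edgeR). Cyp3a11, the main steroid- and drug-metabolising Cyp3a enzyme of mouse liver and a target of PXR, was at 1408, 1561 and 1409 CPM in WT and 2573, 1716 and 1297 CPM in Con A. Its groups overlapped (log2 fold change 0.35 ± 0.23 SE; adjusted p = 0.206 in edgeR). Cyp3a13 stood at 45.5, 36.3 and 46.1 CPM in WT and 45.9, 72.8 and 61.1 CPM in Con A (log2 fold change 0.49 ± 0.20 SE; adjusted p = 0.0577 in edgeR).

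Cyp3a25 and Cyp3a59 are 97.48% identical in coding sequence and 94.82% identical over the 250 bases before the start site. They are shown because their levels differed in size although the promoters are near-identical. The RefSeq sequences, GRCm38.p6, are at chr5:146009619-146009868 on the minus strand for Cyp3a25 and at chr5:146079008-146079257 on the plus strand for Cyp3a59, both read 5′ to 3′ along the gene, with capitals at bases that differ, or have no partner, in their alignment.

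Cyp3a25: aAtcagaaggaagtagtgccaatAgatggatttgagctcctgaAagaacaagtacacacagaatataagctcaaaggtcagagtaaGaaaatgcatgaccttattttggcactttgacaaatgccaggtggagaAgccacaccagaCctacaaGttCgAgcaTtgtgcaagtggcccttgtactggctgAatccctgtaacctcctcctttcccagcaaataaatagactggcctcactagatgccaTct

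Cyp3a59: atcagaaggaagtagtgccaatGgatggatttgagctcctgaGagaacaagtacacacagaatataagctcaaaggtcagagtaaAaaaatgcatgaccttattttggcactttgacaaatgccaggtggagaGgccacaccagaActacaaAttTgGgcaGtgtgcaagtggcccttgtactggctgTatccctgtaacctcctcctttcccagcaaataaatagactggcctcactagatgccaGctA

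Each stretch holds the nuclear receptor hexamer AGGTCA in 2 copies, 176 bases before the start on the gene's strand and 155 bases before it on the other strand in Cyp3a25, and 177 and 156 bases before it in Cyp3a59. The motif TTGCNNAA was found in the Cyp3a25 stretch only, which says no more than that these letters are not in the other. Per length, Cyp3a59 stood at 7.44, 7.02 and 8.14 percent of the Cyp3a25 level in WT, at 0.838, 0.676 and 0.761 percent after Con A, and at 0.558, 0.535 and 0.852 percent in FMT-Con A. The ratio was thus lower in all 6 injected libraries than in any WT library; the pair was chosen with these values known and is not tested. Of the 150-base windows along the transcripts, 0.586% of those of Cyp3a25 and 0.649% of those of Cyp3a59 occur in the other gene.

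**Figure D3:**
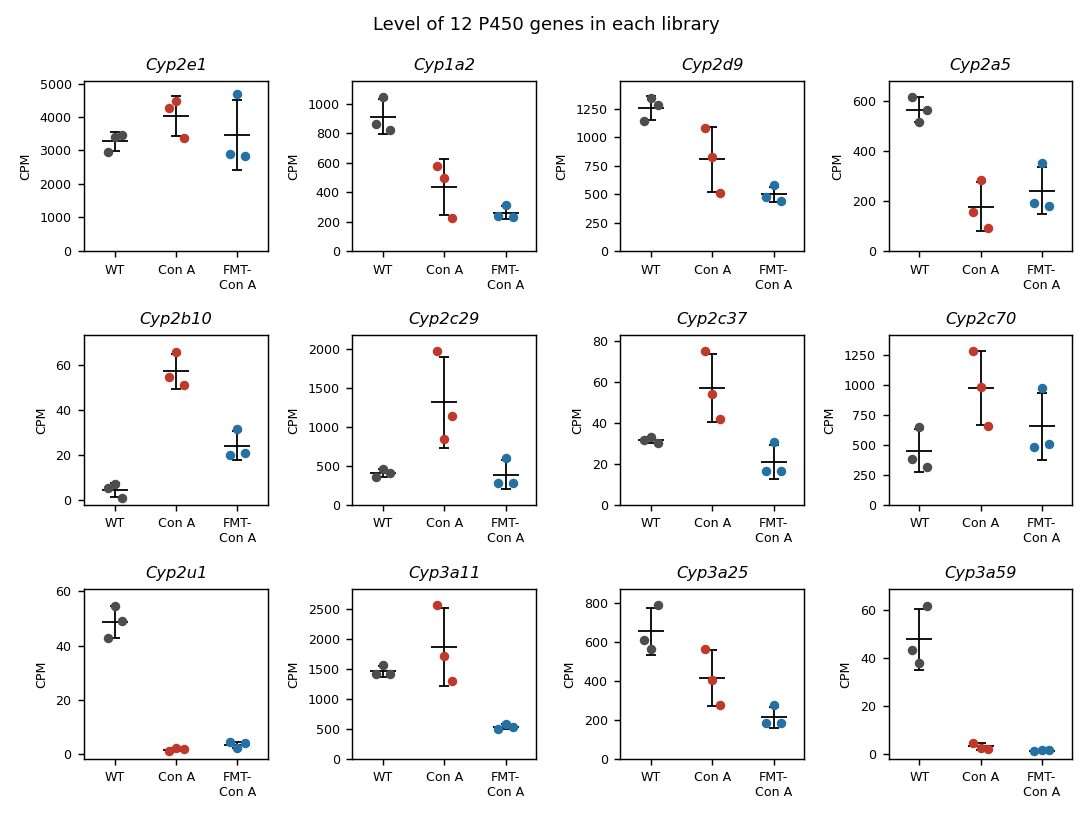
CPM of 12 P450 genes in each library, 1 panel per gene with its own axis, points for libraries and bars for the mean and SD of 3 libraries (grey WT, red Con A, blue FMT-Con A). Cyp2c29 and Cyp2c37 are highest in Con A, Cyp3a11 is lowest in FMT-Con A at 494 to 577 CPM, and Cyp2u1 and Cyp3a59 are near 0 in both injected groups.

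The comparison of FMT-Con A with Con A asks how the faecal transfer bears on the response to the same injection. Here 1 of the 45 P450 genes was higher and 6 were lower by the same test. Over all genes tested 16.8% were called (6.26% higher and 10.6% lower), and the P450 share of 15.6% lay near that background. The median log2 fold change of the 45 was -0.68, against -0.0089 over all genes. The libraries did not overlap for 10 of the 45, against 32.7% of all genes. Without FMT-Con A 1 and 3, which had the most muscle transcript, FMT-Con A 2 stands alone and is assumed to vary as the other groups do; edgeR then called 0 higher and 0 lower, with 1 and 3 at an unadjusted p under 0.05. DESeq2 on all 9 libraries called 1 higher and 14 lower, and the share it called over all genes was not taken. The edgeR fit holds 1 estimate of the spread per gene for all 3 groups, WT included. Among tested P450 genes with a group mean of at least 1 CPM and no count of 0, libraries spread least in WT. The median of highest over lowest library was 1.29 in WT, 2.08 in Con A and 1.62 in FMT-Con A. With only the 2 groups compared, edgeR called 0 higher and 3 lower. The number lower was 3 without WT 1, 2 without Con A 1 and 13 without Con A 3. It was 1 without FMT-Con A 1, 12 without FMT-Con A 2 and 2 without FMT-Con A 3. The number higher was 3 without FMT-Con A 2, 1 without Con A 2 and 0 without any other library. Shares over all genes tested were taken in the main fit only, so none stands beside the numbers of these other fits.

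FMT-Con A 2 stood above both other libraries of its group in 34 of the 45 P450 genes (75.6%), against 44.2% of all genes tested. Con A 3 stood below both others of its group in 31 of the 45 (68.9%), against 33.8% of all genes. Con A 3 was the Con A library with the most muscle transcript and FMT-Con A 2 the FMT-Con A library with the least. FMT-Con A 1 and 3 resembled each other more closely than any other 2 libraries of 1 group, with a median chi-square over sampling noise of 2.73. The values were 3.58 to 5.97 within WT and 9.5 to 16.6 within Con A. From FMT-Con A 2 to FMT-Con A 1 and 3 they were 13 and 13.1. FMT-Con A 1 and 3 differed by more than sampling noise and were kept as 2 libraries. That difference cannot show whether they come from separate animals.

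Cyp3a11 gave the largest of the falls. It was at 2573, 1716 and 1297 CPM in Con A and at 494, 577 and 529 CPM in FMT-Con A, with FMT-Con A 2 as low as the other libraries of its group. No library overlapped, and the log2 fold change was -1.80 (SE 0.24, edgeR adjusted p = 0.00285). It kept its call without each single library, and with FMT-Con A 2 alone in its group the log2 fold change was -1.69 (edgeR adjusted p = 0.096). Cyp3a25 was at 182, 277 and 182 CPM in FMT-Con A, below all Con A libraries, though FMT-Con A 2 at 277 was close to Con A 3 at 278 CPM (log2 fold change -0.96 ± 0.28 SE; adjusted p = 0.0425 in edgeR). Cyp3a59, already lower in Con A than in WT, was at 0.979, 1.42 and 1.49 CPM in FMT-Con A, lower than in Con A (log2 fold change -1.24 ± 0.33 SE, adjusted p = 0.0338 in edgeR). Both of the latter calls were lost without WT 1, Con A 1, FMT-Con A 1 or FMT-Con A 3, that of Cyp3a25 also without WT 2, WT 3 or Con A 2 and under library-total or upper-quartile scaling.

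Of the 4 Cyp2c genes higher in Con A than in WT, 2 were lower in FMT-Con A than in Con A. Cyp2c29 was at 284, 599 and 281 CPM in FMT-Con A, below every Con A library (log2 fold change -1.76 ± 0.37 SE; adjusted p = 0.0152 in edgeR). Cyp2c37 was at 16.3, 30.6 and 16.3 CPM, again without overlap (log2 fold change -1.44 ± 0.27 SE; adjusted p = 0.0104 in edgeR). With FMT-Con A 2 alone in its group the log2 fold changes were -1.13 and -0.90 (edgeR adjusted p = 0.251 and 0.19). Leaving out FMT-Con A 1 ended both calls, and leaving out Con A 1 or FMT-Con A 3 that of Cyp2c29. Against WT neither passed in FMT-Con A (log2 fold changes -0.07 and -0.59, SE 0.36 and 0.27, edgeR adjusted p = 0.871 and 0.082). Cyp2c37 passed as lower than WT in 4 of 18 alternatives, and Cyp2c29 in 0. Cyp2c50, which did not pass after Con A alone, was at 359, 254 and 146 CPM in the Con A libraries, and FMT-Con A had 81.6, 163 and 83.1 CPM. Its groups overlapped (log2 fold change -1.21 ± 0.34 SE; adjusted p = 0.0397 in edgeR), and the call was lost without any 1 of the libraries other than Con A 3 and FMT-Con A 2. Cyp2c70 was at 479, 974 and 505 CPM in FMT-Con A (log2 fold change -0.58 ± 0.37 SE, adjusted p = 0.294 in edgeR). Cyp2c39 did not differ by the test between FMT-Con A and Con A (log2 fold change -0.09, edgeR adjusted p = 0.89). Its FMT-Con A level just missed the threshold against WT (log2 fold change 0.99, edgeR adjusted p = 0.0504), and passed as higher in 7 of 18 alternatives.

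Cyp2u1 was the gene that rose, at 4.36, 2.18 and 4.01 CPM in FMT-Con A against 1.05, 2.18 and 1.91 CPM in Con A. FMT-Con A 2 and Con A 2 both rounded to 2.18 CPM, and in both groups the gene stayed far below WT. The log2 fold change was 1.04 (SE 0.30, edgeR adjusted p = 0.0421), and the call was lost without any library other than Con A 2 and FMT-Con A 2. Cyp2b10 was at 20.1, 31.6 and 20.6 CPM in FMT-Con A, below all 3 Con A libraries, and did not pass (log2 fold change -1.25 ± 0.47 SE; adjusted p = 0.0895 in edgeR). In edgeR 0 of the 4 Cyp2a, 7 Cyp2d and 3 Cyp1 genes passed in this comparison, and 0, 2 and 1 of them had an unadjusted p under 0.05. Cyp1a1 had 23, 0 and 13 counts in FMT-Con A, and the count of 0 allows up to 3 of the 21580482 counts of that library.

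**Figure D4:**
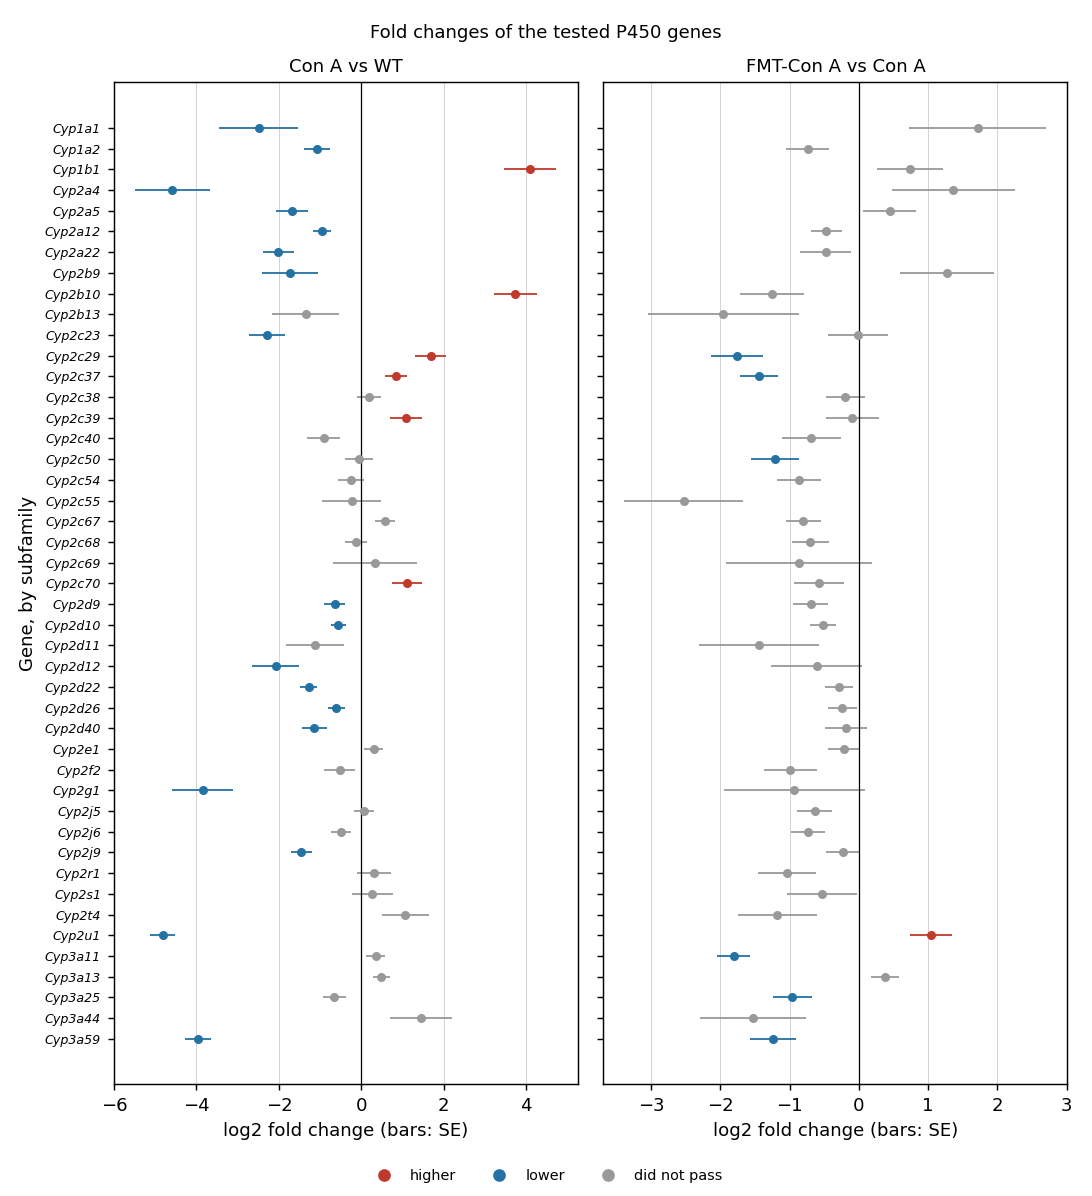
log2 fold change of the 45 tested P450 genes in Con A against WT (left) and FMT-Con A against Con A (right), points for the estimate and bars for 1 SE, red for higher, blue for lower and grey for genes that did not pass at an edgeR adjusted p of 0.05. Cyp2c29 and Cyp2c37 are red on the left and blue on the right; the 2 panels share the Con A libraries and have axes of different width.

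Both comparisons above use the same Con A libraries, so a high value there raises the first fold change and lowers the second. With that in view, 4 genes passed in both. Cyp2c29 and Cyp2c37 were higher in Con A than in WT and lower in FMT-Con A than in Con A. Cyp2u1 had the opposite calls, and Cyp3a59 was lower in both comparisons. Their WT, Con A and FMT-Con A means were 408 ± 52.1, 1312 ± 583 and 388 ± 183 CPM for Cyp2c29, 31.6 ± 1.62, 57 ± 16.8 and 21.1 ± 8.24 CPM for Cyp2c37, 48.9 ± 5.92, 1.71 ± 0.592 and 3.52 ± 1.17 CPM for Cyp2u1, and 47.9 ± 12.6, 3.07 ± 1.32 and 1.3 ± 0.277 CPM for Cyp3a59 (SD, n = 3).

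Against WT, the FMT-Con A livers had 3 P450 genes higher and 27 lower of 45. Over all genes 59% were called, 31.2% higher and 27.9% lower, so the share of lower calls among the P450 genes, 60%, was above the background. The median log2 fold change was -1.23, against 0.032 over all genes, and the libraries did not overlap for 32 of the 45 (71.1%), against 69.1% of all genes. With FMT-Con A 2 alone in its group, fewer of the 45 were lower, and the share over all genes was not taken in that fit. All 7 Cyp2d and all 4 Cyp2a genes tested were lower, as were 6 of 13 Cyp2c and 3 of 5 Cyp3a genes.

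The higher genes were Cyp1b1, Cyp2b10 and Cyp3a13. Cyp1b1 was at 9.12, 2.85 and 9.23 CPM in FMT-Con A, with the 2 higher values in the libraries rich in muscle transcript (log2 fold change 4.85 ± 0.63 SE; adjusted p = 0.000144 in edgeR). With FMT-Con A 2 alone the log2 fold change was 3.53 (edgeR adjusted p = 0.00356). Cyp2b10 was above WT in every library (log2 fold change 2.49 ± 0.51 SE; adjusted p = 0.00216 in edgeR), and Cyp3a13 was at 67.5, 98.2 and 68 CPM, also above every WT library (log2 fold change 0.87 ± 0.21 SE; adjusted p = 0.00485 in edgeR). For these 2 genes the values with FMT-Con A 2 alone were 2.88 and 1.20 (edgeR adjusted p = 0.00907 and 0.00628).

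The largest falls against WT were those of Cyp3a59 (log2 fold change -5.21 ± 0.34 SE; adjusted p = 2.32e-06 in edgeR) and Cyp2u1 (-3.78, SE 0.29, edgeR adjusted p = 5.29e-06), among genes with at least 5 CPM in WT. Cyp2a4 was at 3.98, 3.37 and 3.93 CPM in FMT-Con A, under every WT library (log2 fold change -3.22 ± 0.83 SE; adjusted p = 0.00747 in edgeR). Cyp2a22 was at 7.45, 7.26 and 6.22 CPM (log2 fold change -2.49 ± 0.38 SE; adjusted p = 0.000387 in edgeR). The FMT-Con A libraries were close together for both genes; those of Cyp2a22 lay far below WT, while WT 2, at 4.45 CPM, was close to them for Cyp2a4. Cyp2c23 stood at 6.44, 10.7 and 7.59 CPM (log2 fold change -2.29 ± 0.43 SE; adjusted p = 0.00144 in edgeR), and Cyp1a2 at 238, 312 and 232 CPM (log2 fold change -1.81 ± 0.32 SE; adjusted p = 0.000907 in edgeR). The Cyp2a4 and Cyp2c23 calls were lost with FMT-Con A 2 alone (edgeR adjusted p = 0.1 and 0.0542).

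The abundant Cyp2d9, Cyp2d10, Cyp2d26, Cyp2a5, Cyp3a11 and Cyp3a25 were also lower than in WT, by 0.85 to 1.62 on the log2 scale. Cyp2d9 was at 471, 576 and 444 CPM in FMT-Con A, Cyp2d10 at 329, 383 and 303 CPM, Cyp2d26 at 332, 487 and 294 CPM, and Cyp2a5 at 192, 350 and 182 CPM. No FMT-Con A library reached the WT range for any of these 6 genes, but the calls of Cyp2d9, Cyp2d26 and Cyp2a5 were lost with FMT-Con A 2 alone (edgeR adjusted p = 0.0513, 0.167 and 0.31), and that of Cyp2a5 also without WT 1, FMT-Con A 1 or FMT-Con A 3. Cyp2e1 was at 2895, 4675 and 2835 CPM, around the WT range and with its highest value in FMT-Con A 2 (log2 fold change 0.08 ± 0.23 SE; adjusted p = 0.767 in edgeR). Cyp2f2, a periportal gene, fell from 345 ± 45.2 to 121 ± 55.7 CPM (SD, n = 3; log2 fold change -1.51 ± 0.38 SE, adjusted p = 0.00695 in edgeR), but this call was lost with FMT-Con A 2 alone (log2 fold change -0.90, edgeR adjusted p = 0.168). Of the 8 pericentral P450 genes listed, 5 were lower and 0 higher in edgeR. These 62.5% lower are near the 60% of the 45 P450 genes tested, beside 27.9% of all genes. In Con A against WT, 2 of these 8 were higher and 2 lower, 25% each, beside 32.5 and 30.9% of all genes. In FMT-Con A against Con A, 4 of these 8 were lower and 0 higher. These 50% lower stand beside 13.3% of the 45 P450 genes and 10.6% of all genes. The 4 were Cyp2c29, Cyp2c37, Cyp2c50 and Cyp3a11, and none of these calls passed in every alternative.

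Over the 3 comparisons, 14 of the 45 genes were lower in both injected groups than in WT with no call between them, 8 passed only as lower in FMT-Con A against WT, and 9 passed in none. Of those 9, Cyp2e1, Cyp2j5, Cyp2c67 and Cyp2c38 were the ones with at least 5 CPM in WT. How often each pattern occurs over all genes tested was not counted, so the numbers 14, 8 and 9 only describe the 45. Of the 7 genes listed as female-biased, Cyp2a4 averaged 35.2 ± 36.8 CPM in WT (SD, n = 3), Cyp2b9, Cyp2b13, Cyp2c40, Cyp2c69 and Cyp3a44 were each under 5 CPM on average in every group, and Cyp3a16 had 2 counts in all 9 libraries together.

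The other genes of the pathway were read from lists chosen with earlier results of these data known. Of 21 tested receptors and liver transcription factors, 5 were higher and 11 lower in Con A than in WT, 2 higher and 5 lower in FMT-Con A than in Con A, and 3 higher and 10 lower in FMT-Con A than in WT. The called shares of 76.2, 33.3 and 61.9% stand beside 63.4, 16.8 and 59% of all genes tested. Nr1i2, which encodes PXR, went from 138 ± 16.7 CPM in WT to 85.4 ± 9.03 CPM in Con A and 57.8 ± 19.5 CPM in FMT-Con A (SD, n = 3), lower than WT in both by the test (log2 fold changes -0.70 and -1.26, SE 0.22 and 0.22, edgeR adjusted p = 0.017 and 0.000833). Nr1i3 was at 1.56 ± 0.199 CPM in FMT-Con A, near its Con A level. Of the 12 P450 genes listed as CAR and PXR targets, 3 were higher and 2 lower in Con A than in WT (Cyp2b10, Cyp2c29 and Cyp2c37 against Cyp2a5 and Cyp2b9), and 5 were lower in FMT-Con A than in Con A. That is 41.7% called in each, beside 63.4 and 16.8% of all genes.

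Electron donors and partner enzymes of the P450s were lower in 3 of 8 genes in Con A against WT, 3 of 8 in FMT-Con A against Con A and 7 of 8 in FMT-Con A against WT, with none higher. These are 37.5, 37.5 and 87.5% lower, beside 30.9, 10.6 and 27.9% of all genes tested, so the first is near the background. The reductase gene Por was at 166 ± 5.61 CPM in WT, 181 ± 34.3 CPM in Con A and 94.9 ± 33.2 CPM in FMT-Con A, and FMT-Con A was below Con A (SD, n = 3; log2 fold change -0.93 ± 0.23 SE, adjusted p = 0.0263 in edgeR). In haem metabolism, on which every P450 depends, 8 of 12 genes were lower and 2 higher in Con A than in WT, 1 was lower in FMT-Con A than in Con A, and 8 were lower and 3 higher in FMT-Con A than in WT. The lower shares of 66.7, 8.33 and 66.7% stand beside the same 30.9, 10.6 and 27.9% of all genes, so the second is near the background. Alas1, the entry enzyme of haem synthesis, fell from 766 ± 276 CPM in WT to 362 ± 78.7 CPM in Con A (SD, n = 3; log2 fold change -1.08 ± 0.30 SE, adjusted p = 0.00947 in edgeR). Hmox1, which breaks haem down, rose from 8.26 ± 1.55 CPM in WT to 494 ± 108 CPM in Con A (SD, n = 3, log2 fold change 5.90 ± 0.25 SE, adjusted p = 1.76e-07 in edgeR). FMT-Con A livers had 205 ± 28.1 CPM, less than Con A (log2 fold change -1.27 ± 0.20 SE, adjusted p = 0.0056 in edgeR).

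RefSeq promoters, here the 250 bases before the start site, were matched for 50 of the 58 P450 genes and searched on both strands beside 32817 promoters of all genes. TATAAA was present in 46% of the P450 promoters and in 12.37% of all, AGGTCA in 28% and 14.03%, and TTGCNNAA in 26% and 9.571%. The Ah receptor core GCGTG was present in 16% and 28.14%, among them those of Cyp1a1, Cyp1b1 and Cyp2b10, and AGTTCA in 12% and 11.85%. The STAT motif TTCNNNGAA was in 4% and 7.015%, and the NF-kappaB decamer in 0 of the 50 and in 0.1402% of all. GTTAAT was in 12% and 6.436%. TTGCNNAA, TATAAA and the other motifs may overlap, and near-identical promoters such as those of Cyp2a4 and Cyp2a5 are not independent, so these shares describe the sequences and are not tested.

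The 13 P450 genes that did not pass the filter on low counts were Cyp2b19, Cyp2b23, Cyp2c65, Cyp2c66, Cyp2d34, Cyp2j7, Cyp2j8, Cyp2j11, Cyp2j12, Cyp2j13, Cyp2w1, Cyp3a16 and Cyp3a57. Cyp2j7, Cyp2j11 and Cyp2w1 had 0 counts in all 9 libraries, which allows up to 3 counts each over the libraries of a group. Cyp2j8 had the most, with 56 counts over the 9 libraries, followed by Cyp3a57 with 53, of which 28 were in a single library. With no filter, edgeR called 2 of the 13. Cyp3a57 had 4, 0 and 3 counts in WT, 8, 8 and 28 after Con A alone, and 0, 2 and 0 with the faecal gavage before it. Con A was then higher than WT (log2 fold change 2.65, adjusted p = 0.0132 in edgeR) and lower in FMT-Con A than in Con A (-4.42, edgeR adjusted p = 0.00384). Cyp2j8 had 10, 8 and 20 counts in WT, 5, 1 and 2 after Con A alone, and 0, 5 and 5 for FMT-Con A. It was lower than WT in both injected groups (log2 fold changes -2.07 and -2.0, edgeR adjusted p = 0.047 and 0.0497). These folds rest on few counts and depend on the prior count. Reads may be shared between Cyp2c40, Cyp2c67, Cyp2c68 and Cyp2c69, in which 8.83 to 20.3% of 150-base windows occur in another gene, so their counts are uncertain.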

How the data were processed

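Liver RNA of 9 libraries (3 groups of 3) was analysed from read counts per gene, whole numbers deposited by the authors as 1 file per library with no normalisation. The tools named per the submitters' processing notes are HISAT2, featureCounts and CASAVA, with the build GRCm38 (mm10); versions, strand setting and the handling of multi-mapping reads are not given in the sources used here. Symbols, exon lengths, positions (counted from 1) and coding sequences come from a GENCODE annotation of GRCm38, which gave a symbol to 52083 of 56719 rows.

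The whole table was fitted in edgeR 4.0.16 (R 4.3.3) with TMM factors, filterByExpr (minimum count 10, minimum total 15; 17704 genes kept) and 1 mean per group (6 residual degrees of freedom). Pairs of groups were compared with two-sided quasi-likelihood F tests, p-values were adjusted by Benjamini-Hochberg over all genes tested, and the threshold was 0.05. SE is the size of the log2 fold change divided by the root of the F statistic, and log2 fold changes use a prior count of 0.125. Levels are CPM with TMM factors, also per kilobase of exon; DESeq2 1.42.0 served as an alternative. The script was tested on simulated data. Promoters come from RefSeq (GRCm38.p6). Totals of 20513051 to 29466806 counts set the precision, and floors of 3 counts cover counting error only.

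The members and gene lists were chosen with earlier results of these data known. Values in every library are given for each Cyp1 gene, the 8 genes with the highest per-length WT level, per comparison the 6 largest rises and falls past the threshold with at least 5 CPM in the higher group, and the 4 genes called in each of the comparisons that share the Con A libraries. Alternatives were other scalings, filters, tools, left-out libraries and, for the P450 share, counts outside the mitochondrial genome and muscle markers, given with the limits. Other genes named were chosen for their role or after their values were seen.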

Additional observations from a re-analysis of the deposited data

How the results depend on the processing

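Alternatives were RLE, library-total and upper-quartile scaling, TMM without mitochondrial and muscle genes, no filter on low counts, DESeq2, only the 2 groups compared, the replicate block, each library left out, the 2 FMT-Con A libraries with the most muscle transcript left out, and a minimum of 1 log2 unit. No P450 gene that passed changed direction under any of them. The minimum of 1 log2 unit was applied only to the numbers of genes called. Under the other alternatives, 16 of 24 calls in Con A vs WT passed in every one. This held for 0 of 7 calls in FMT-Con A vs Con A and 15 of 30 in FMT-Con A vs WT. Shares over all genes tested were taken in the main fit only, so the numbers that follow have none beside them. In Con A vs WT the 6 genes that rose were 3 with upper-quartile factors and 10 with no filter. In FMT-Con A vs Con A the 1 gene that rose was 0 with only the 2 groups compared, 0 with the replicate block and 0 without the 2 muscle-rich libraries, and the 6 that fell were 15 with no filter, 14 with DESeq2, 3 with only the 2 groups compared and 0 without the 2 muscle-rich libraries. In FMT-Con A vs WT the 27 that fell were 13 without them. Leaving out single libraries gave 3 to 8 risen and 13 to 21 fallen in Con A vs WT, 0 to 3 and 1 to 13 in FMT-Con A vs Con A, and 3 to 4 and 23 to 30 in FMT-Con A vs WT; the P450 share of counts then differed by -0.302 to -0.0567, -0.477 to -0.232 and -0.644 to -0.477 percentage points. The cause of these moves was not tested. Same-numbered libraries correlated by -0.216 to 0.344 in their deviations and not every library correlated best with its own number, so the numbers were not taken as pairs; under the replicate block 17 genes fell in Con A vs WT, 4 in FMT-Con A vs Con A and 27 in FMT-Con A vs WT. Library totals moved the median log2 fold change of all genes by -0.19 in Con A vs WT and 0.19 in FMT-Con A vs Con A, and upper-quartile factors by -0.20 in Con A vs WT and -0.11 in FMT-Con A vs WT. Over counts outside the mitochondrial genome and muscle markers the share differences were -0.479, -0.332 and -0.812. With no filter, Cyp2j8 and Cyp3a57 of the 13 untested genes passed. Few counts limit these 13 and Cyp1a1.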
